A study of Mus musculus with 30 samples.

Results

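POU6F1 peaks were examined at 557 genomic intervals that lay at the start of a non-coding gene and away from every protein-coding start. POU6F1 is a POU-homeodomain transcription factor, and its peaks were called by chromatin immunoprecipitation and sequencing (ChIP-seq) in mouse embryonic stem cells (mESCs). An interval was kept where peaks of both ChIP replicates, each called against IgG, shared at least 1 bp. It also had to lie within 1 kb of a transcription start site (TSS) of a gene that GENCODE vM21 does not class as protein-coding, and over 1 kb from every protein-coding TSS. These 557 intervals were 3.10% of the 17994 consensus intervals, against 12706 (70.6%) at protein-coding starts, 3142 farther away inside genes and 1589 between genes. They reached 568 non-coding genes, 1.696% of the 33499 annotated ones.

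The mESCs were derived from *Dis3* flox/flox blastocysts and transiently transfected with *Pou6f1-mCherry* under the CAG promoter, so that the peaks are those of an overexpressed, tagged protein. The labels name 2 anti-mCherry replicates of these cells, 1 anti-IgG library and 1 anti-mCherry library of cells with mCherry alone, so both replicates share each control. The same series holds RNA-seq of 23 embryos, each sequenced singly, from crosses between *Dis3* het mice. At E2.5 there were 4 null, 2 het and 6 wild-type embryos, and E2.75 had 3 null, 5 het and 3 wild-type ones. The null allele lacks internal exons of *Dis3*, which encodes a ribonuclease of the RNA exosome. It was kept as 2 mouse lines that differ at the repaired junction, and the labels do not say from which line an embryo came.

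Non-coding genes are transcribed by the same machinery as protein-coding ones, and many lncRNAs start from CpG-rich promoters. Among the genes reached here are small nucleolar RNA (snoRNA) hosts, whose spliced transcripts carry snoRNAs in their introns, nuclear-retained lncRNAs such as *Malat1* and *Neat1*, lncRNAs of the X inactivation center, and miRNA genes. The RNA exosome degrades and trims many non-coding RNAs, and DIS3 is one of its catalytic subunits. POU homeodomain proteins as a family bind AT-rich letters, and the octamer ATGCAAAT is the classical site of the POU family.

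The sequences of 9 intervals are shown because the results below turn on them. Each is the 300 bases of GRCm38 around the summit of replicate 1, on the plus strand from 5′ to 3′, with the letters searched for in capitals. Both strands were searched for the GC box letters GGGCGG, the NFY letters CCAAT, the E box letters CACGTG, the CRE letters TGACGTCA, the ETS letters CCGGAAG and the octamer ATGCAAAT. The homeodomain letters TAATGAG, the shorter homeodomain letters TAATTA, the SOX letters CATTGTT, the TATA box letters TATAAA, the NRF1 letters GCGCATGCG, the ZBTB33 letters TCTCGCGAG and the B box letters GTTCGANNC of RNA polymerase III genes were searched likewise. The first 3 have the highest peaks, and the next is a high peak poor in CpG. The following 2 hold the homeodomain letters, and the last 3 lie at genes whose RNA rose in null embryos.
*Mir148a*, chr6:51270928-51271227: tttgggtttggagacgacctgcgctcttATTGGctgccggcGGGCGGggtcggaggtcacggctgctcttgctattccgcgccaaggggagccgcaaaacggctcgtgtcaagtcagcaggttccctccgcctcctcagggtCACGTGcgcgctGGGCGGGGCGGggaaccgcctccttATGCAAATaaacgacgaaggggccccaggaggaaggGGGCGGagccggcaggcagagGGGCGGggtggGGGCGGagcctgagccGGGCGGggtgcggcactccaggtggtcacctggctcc
*1700001L05Rik*, chr15:83367262-83367561: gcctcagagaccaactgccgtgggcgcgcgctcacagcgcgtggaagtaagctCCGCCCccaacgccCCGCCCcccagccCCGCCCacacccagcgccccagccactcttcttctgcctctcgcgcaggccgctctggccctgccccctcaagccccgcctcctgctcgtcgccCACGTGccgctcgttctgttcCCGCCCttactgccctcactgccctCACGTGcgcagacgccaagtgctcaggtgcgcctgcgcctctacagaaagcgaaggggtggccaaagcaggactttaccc
*Gm20732*, chr15:68363222-68363521: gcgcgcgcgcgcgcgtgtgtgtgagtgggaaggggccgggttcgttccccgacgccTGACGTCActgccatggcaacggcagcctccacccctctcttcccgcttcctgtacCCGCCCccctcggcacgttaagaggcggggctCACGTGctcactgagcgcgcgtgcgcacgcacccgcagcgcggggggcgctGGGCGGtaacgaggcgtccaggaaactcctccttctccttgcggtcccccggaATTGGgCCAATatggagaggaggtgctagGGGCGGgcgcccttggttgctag
*Gm8493*, chr5:109553568-109553867: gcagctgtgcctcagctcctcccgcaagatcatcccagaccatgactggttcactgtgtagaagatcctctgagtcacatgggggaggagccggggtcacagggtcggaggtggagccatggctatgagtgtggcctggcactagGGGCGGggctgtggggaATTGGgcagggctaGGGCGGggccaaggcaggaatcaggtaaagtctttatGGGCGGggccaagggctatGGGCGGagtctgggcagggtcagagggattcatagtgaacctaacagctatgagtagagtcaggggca
*Tmem250-ps*, chr2:26140417-26140716: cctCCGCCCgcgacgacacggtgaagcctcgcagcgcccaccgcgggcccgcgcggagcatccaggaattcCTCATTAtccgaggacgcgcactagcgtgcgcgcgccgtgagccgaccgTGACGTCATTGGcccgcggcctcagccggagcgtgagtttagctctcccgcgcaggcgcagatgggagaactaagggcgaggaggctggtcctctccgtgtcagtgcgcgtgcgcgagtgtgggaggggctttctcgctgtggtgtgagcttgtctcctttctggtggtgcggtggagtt
*Neat1* and *Frmd8os*, chr19:5845825-5846124: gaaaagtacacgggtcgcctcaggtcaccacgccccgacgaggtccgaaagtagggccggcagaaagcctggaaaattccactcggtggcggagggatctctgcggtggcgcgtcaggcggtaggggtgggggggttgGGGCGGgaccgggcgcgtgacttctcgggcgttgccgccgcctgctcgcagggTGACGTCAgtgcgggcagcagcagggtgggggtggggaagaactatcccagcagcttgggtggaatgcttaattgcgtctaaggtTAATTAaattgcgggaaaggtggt
*Snhg15*, chr11:6528656-6528955: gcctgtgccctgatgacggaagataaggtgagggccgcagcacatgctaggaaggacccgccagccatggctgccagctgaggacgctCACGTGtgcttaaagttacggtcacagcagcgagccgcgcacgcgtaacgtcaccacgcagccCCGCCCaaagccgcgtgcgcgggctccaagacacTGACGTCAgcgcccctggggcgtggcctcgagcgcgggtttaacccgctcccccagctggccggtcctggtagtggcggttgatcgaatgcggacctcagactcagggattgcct
*1700096K18Rik*, chr5:25529598-25529897: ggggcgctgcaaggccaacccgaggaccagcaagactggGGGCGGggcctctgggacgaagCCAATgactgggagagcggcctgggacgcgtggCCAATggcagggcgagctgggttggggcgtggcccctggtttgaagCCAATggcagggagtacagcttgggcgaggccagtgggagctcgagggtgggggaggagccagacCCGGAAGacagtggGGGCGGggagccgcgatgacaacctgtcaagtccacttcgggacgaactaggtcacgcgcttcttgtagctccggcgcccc
*Gm25360*, chr1:72225818-72226117: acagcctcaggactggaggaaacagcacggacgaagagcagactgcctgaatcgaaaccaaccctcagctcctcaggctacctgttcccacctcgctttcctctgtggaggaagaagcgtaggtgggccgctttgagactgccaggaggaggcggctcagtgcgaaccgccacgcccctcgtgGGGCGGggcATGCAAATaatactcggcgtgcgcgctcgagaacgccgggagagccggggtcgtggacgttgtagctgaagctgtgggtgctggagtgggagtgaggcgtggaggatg

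The highest interval lay upstream of *Mir148a*, the gene of a miRNA that is abundant in several tissues. It spanned chr6:51270581-51271264, with a fold enrichment over IgG of 46.0 in replicate 1 and 16.9 in replicate 2. The summit of replicate 1 was at -1168 bp from the 5′ end of the annotated hairpin, which is upstream, and the nearest protein-coding TSS, of *Nfe2l3*, was 161406 bp away. Its window holds the letters of the octamer, NFY, the GC box and the E box. The lncRNA *1700001L05Rik* came next, with fold enrichments of 32.2 and 16.5, followed by *Gm20732* with 24.1 and 16.4. *4930412M03Rik* had values of 37.0 and 14.5, and the pseudogene *Gm8493* had 29.3 and 13.2. *Snhg15*, a snoRNA host, followed with 31.2 and 12.8. *5730405O15Rik* on the X chromosome had 36.1 and 12.5. *Gm47061*, antisense to *Tfap2a*, had 41.4 and 12.4. *Tmem250-ps* with 32.7 and 12.4 and *Gm28050* with 25.6 and 12.1 closed the 10 highest by the lower of the 2 replicates. All of these but *Gm28050* were also overlapped by peaks called against the mCherry control in both replicates.

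Fold enrichment was higher in replicate 2 than in replicate 1 at 38 of the 557 intervals and lower at the rest. Fold enrichment ranged from 3.14 to 46.0 in replicate 1 and from 1.87 to 16.9 in replicate 2, with medians of 9.18 and 4.94. The consensus intervals at protein-coding starts had medians of 14.1 and 5.54, those inside genes 6.30 and 4.56, and those between genes 7.07 and 4.78. The intervals at non-coding starts therefore lay between the protein-coding starts and the distal intervals in both replicates. Intervals are not replicates, and 2 ChIP replicates allow no test, so these medians are descriptions. The intervals came from 517 peaks of replicate 1 and 547 of replicate 2, and 35 peaks of replicate 1 gave over 1 interval, at most 4. Intervals from the same peak carry its fold enrichment, so the medians over intervals count such a peak more than once. Their median width was 202 bp, with a range from 1 to 3519 bp. The 2 replicates placed their summits within 100 bp of each other for 317 intervals (56.9%), and the summit of replicate 1 lay inside the shared interval for 368 (66.1%). Read depth does not come with these peak lists, so the counting error of a single peak is unknown.

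**Figure D1:**
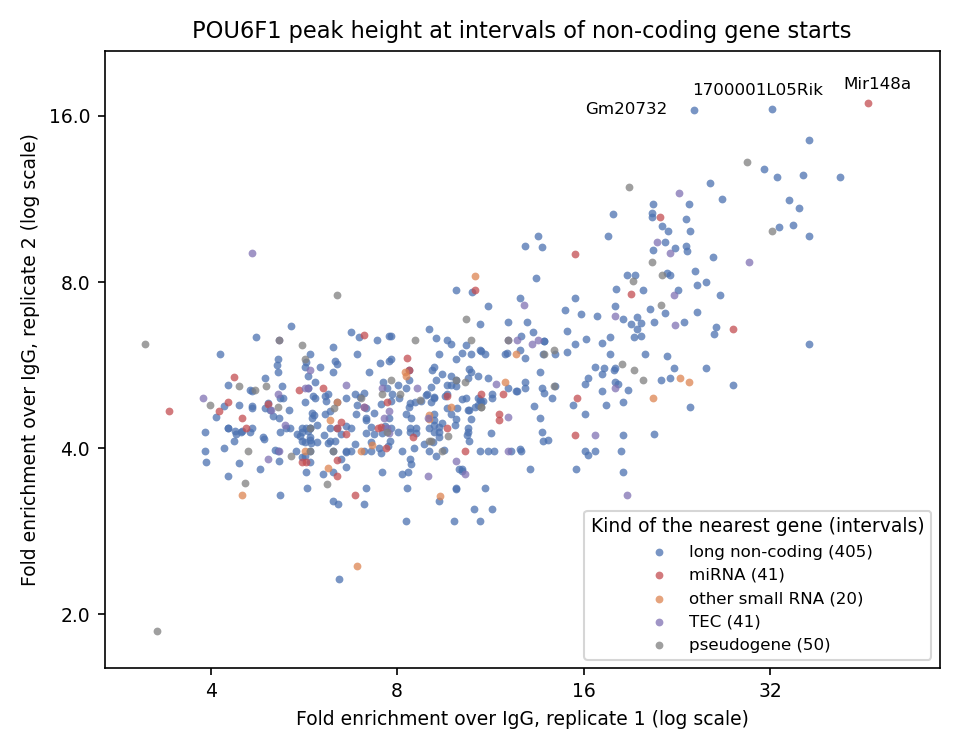
Fold enrichment over IgG of the 557 intervals in replicate 1 (x axis) and replicate 2 (y axis), both on log scales, with 1 point per interval colored by the kind of its nearest non-coding gene. Values in replicate 2 reach 16.9 against 46.0 in replicate 1, and the 3 highest intervals by the lower value are named.

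Peaks were also called from the same 2 ChIP libraries against cells with mCherry alone. They share their ChIP reads with the peaks that chose the intervals, so their overlap and its relation to peak height are no separate evidence of binding. They overlapped 368 of the 557 intervals (66.1%) in replicate 1 and 63 (11.3%) in replicate 2. All 63 of the latter were overlapped in both replicates, and 189 (33.9%) were overlapped in neither. At protein-coding starts the shares were 82.9% and 23.9%, inside genes 38.2% and 4.42%, and between genes 53.2% and 8.999%. The 63 doubly overlapped intervals had median fold enrichments over IgG of 21.6 and 8.89, against 5.78 and 4.50 for the 189 without such a peak. The lists themselves differ in length, with 31348 peaks against mCherry in replicate 1 and 3630 in replicate 2.

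**Figure D2:**
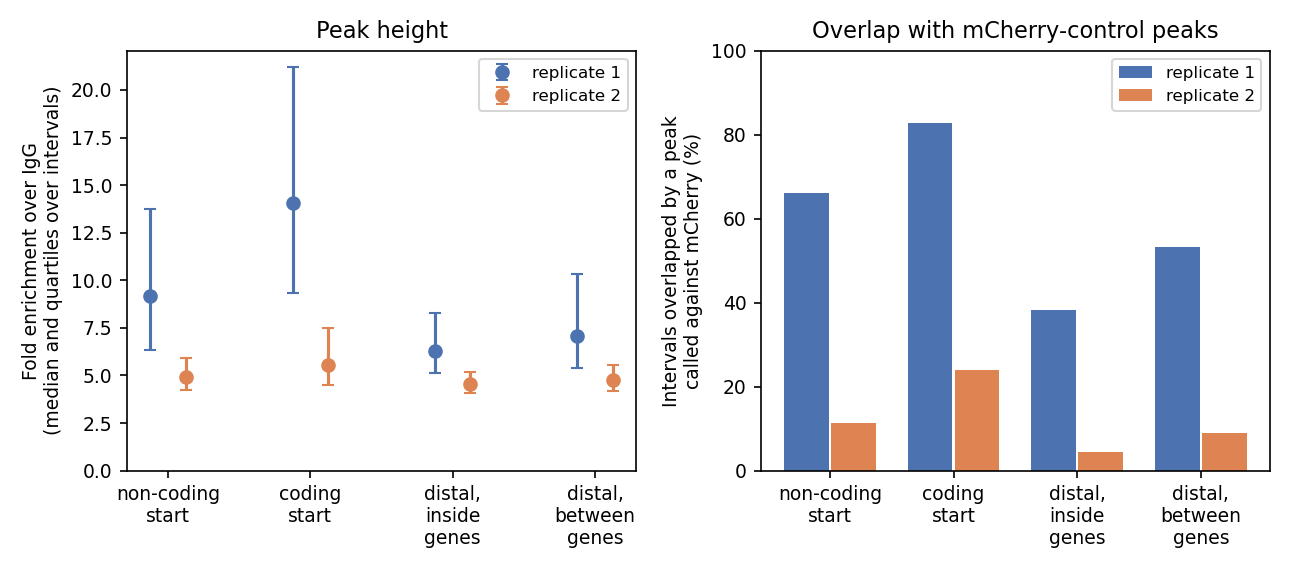
Left, median fold enrichment over IgG with quartiles over intervals (y axis, bars from the lower to the upper quartile) in each class of consensus interval (x axis) and replicate (color). Right, percent of intervals overlapped by a peak called against mCherry. The 557 intervals at non-coding starts have medians of 9.18 and 4.94 and overlaps of 66.1% and 11.3%, between the protein-coding starts and the distal classes.

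By the nearest gene, 405 intervals (72.7%) lay at long non-coding genes, 50 at pseudogenes, 41 at miRNA genes, 41 at genes of the TEC class (transcribed regions whose gene structure is not settled) and 20 at other small RNA genes. Of the annotated genes of each kind, the intervals reached 378 of 10155 long non-coding genes (3.72%), 54 of 2202 miRNA genes (2.45%), 42 of 3219 TEC genes (1.30%), 42 of 3882 other small RNA genes (1.082%) and 52 of 13523 pseudogenes (0.385%). Among the long non-coding classes, the intervals reached 213 of 5854 lincRNA genes (3.64%), 94 of 2959 antisense genes (3.18%), 62 of 790 processed_transcript genes (7.85%) and 3 of 30 sense_overlapping genes (10%). Peak height varied little between the kinds, with medians in replicate 1 from 7.53 at miRNA genes to 9.34 at long non-coding genes and in replicate 2 from 4.67 at other small RNA genes to 5.19 at pseudogenes. Several non-coding genes lay within 1 kb of 72 intervals, and 154 (27.6%) lay inside the body of a protein-coding gene. The latter had a median fold enrichment of 7.53 in replicate 1 and 4.73 in replicate 2, against 9.91 and 5.02 for the 403 outside such bodies. The overlap with mCherry-control peaks in both replicates was 4.55% inside and 13.9% outside.

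The non-coding TSS lay inside the interval itself for 198 of the 557 (35.5%). These 198 had median fold enrichments of 12.2 and 5.32, and 21.7% of them were overlapped by mCherry-control peaks in both replicates. For the 133 intervals with the TSS over 500 bp away, the medians were 7.70 and 4.78 and the overlap was 6.77%. The summit of replicate 1 was upstream of the nearest non-coding TSS for 312 intervals (56.0%), downstream for 243 and on the TSS base for 2, and it was within 100 bp for 160 (28.7%). The 312 upstream intervals had median fold enrichments of 9.64 and 4.97, against 8.43 and 4.84 for the 243 downstream. The overlap with mCherry-control peaks in both replicates was 15.1% upstream and 6.58% downstream. The rule itself sets the outer limits of these distances. The interval nearest to a protein-coding TSS, at *Gm27045*, was 1004 bp from it and had values of 5.71 and 4.35, while the nearest one left out was at 994 bp with 7.46 and 4.75. The interval farthest from its own TSS, at *Gm11724*, was 998 bp away with 10.9 and 4.88, and the first one left out, at 1001 bp, had 8.82 and 3.95.

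**Figure D3:**
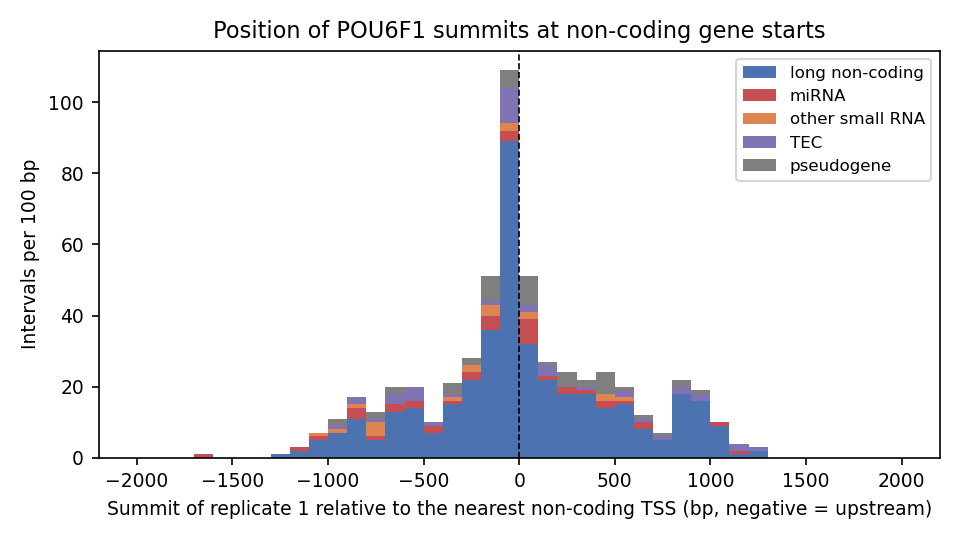
Distance of the summit of replicate 1 from the nearest non-coding TSS (x axis, bp, negative values upstream) and the number of intervals per 100 bp (y axis), stacked by the kind of the nearest gene. The tallest bin lies just upstream of the TSS, and 160 of 557 summits are within 100 bp of it.

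The windows around the summits were GC-rich, with a median GC content of 61.7% against 66.7% at protein-coding starts, 59.0% inside genes and 58.3% between genes. Intervals from the same peak of replicate 1 can share its summit, so the non-coding starts have only 517 distinct windows. The GC, CpG and letter counts here and below are per interval, and they count a shared window more than once. The 39185 windows of the same length around all annotated non-coding TSSs had a median of 46.7%. The CpG ratio (observed over expected CpG, where values above 0.6 are typical of CpG islands) was over 0.6 in 289 windows (51.9%), against 82.8% at the consensus intervals of protein-coding starts and 12.96% at all non-coding TSSs. The 289 CpG-rich intervals had median fold enrichments of 12.1 and 5.21, and 16.3% of them were overlapped by mCherry-control peaks in both replicates. The other 268 had medians of 6.89 and 4.70, with an overlap of 5.97%. Of the 100 highest intervals 78 were CpG-rich, against 40 of the 100 lowest. *Gm8493* went the other way, with the fifth highest peak and a CpG ratio of 0.282.

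The GC box letters GGGCGG were in 312 of the 557 windows (56.0%), beside 75.7% at protein-coding starts, 30.8% inside genes, 41.0% between genes and 10.999% at all non-coding TSSs. The intervals with the GC box had median fold enrichments of 10.8 and 5.13, against 6.99 and 4.75 without. The E box letters CACGTG, which bHLH factors such as MYC and USF bind, were in 80 windows (14.4%), beside 12.1% at protein-coding starts and 4.13% at all non-coding TSSs. The CRE letters TGACGTCA, the site of CREB and ATF factors, were in 21 windows (3.77%), including those of *Snhg15*, *Gm20732*, *Tmem250-ps* and *Neat1* shown above. These 21 had median fold enrichments of 18.0 and 5.94, against 9.002 and 4.87 for the others. CCAAT was in 152 windows (27.3%), beside 38.3% at all non-coding TSSs, and the TATA box letters were in 8 (1.44%), beside 16.5%. The ETS letters were in 38 (6.82%), the NRF1 letters in 15 (2.69%), the SOX letters in 19 (3.41%), the B box letters in 7 and TCTCGCGAG in 1. None of the letters was in 135 windows (24.2%).

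The homeodomain letters TAATGAG were in 7 windows (1.26%), beside 0.968% at protein-coding starts, 1.78% inside genes, 2.64% between genes and 4.59% at all non-coding TSSs. TAATTA was in 9 windows (1.62%), beside 7.30% at all non-coding TSSs. The 7 intervals with TAATGAG had median fold enrichments of 7.70 and 4.78, and *Tmem250-ps* was the highest of them. The octamer was in 12 windows (2.15%), beside 0.968% at protein-coding starts and 2.62% at all non-coding TSSs. AT-rich letters are rarer in GC-rich windows, and the shares were not corrected for base composition.

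**Figure D4:**
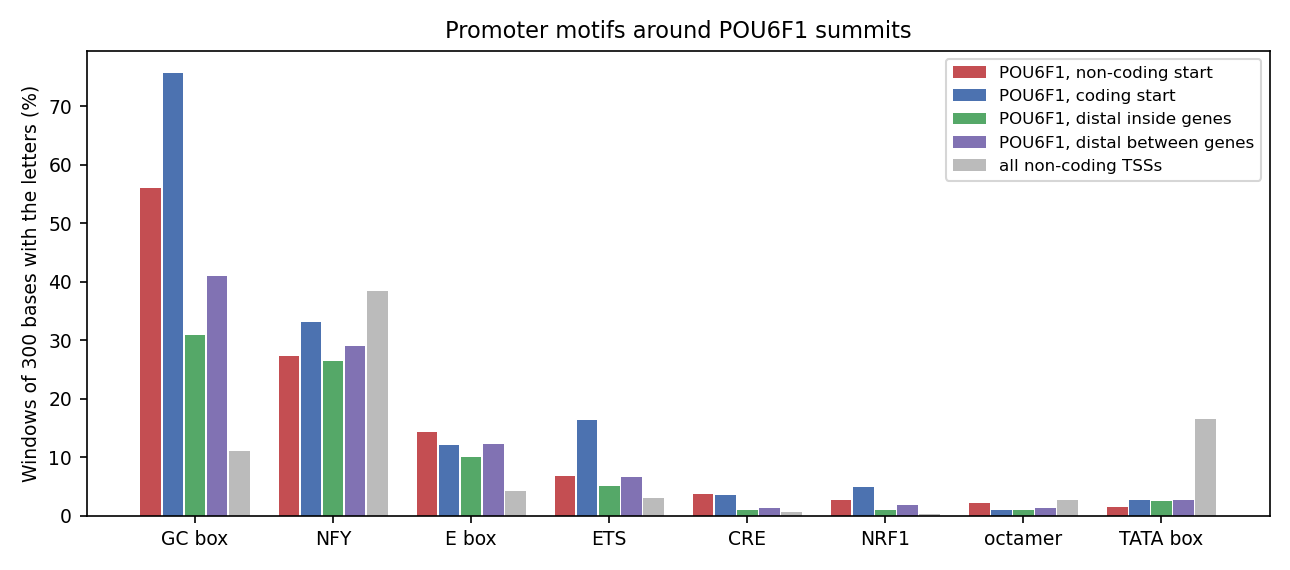
Percent of 300-base windows (y axis) that hold the letters of each named motif (x axis) on either strand, for the 4 classes of consensus interval and for all annotated non-coding TSSs (color). A window shared by several intervals counts for each of them. GC box letters are in 56.0% of the windows at non-coding starts, against 10.999% at all non-coding TSSs and 75.7% at protein-coding starts.

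Intervals reached 54 miRNA genes through 51 intervals, where the start is the 5′ end of the annotated hairpin and not the start of the primary transcript. RefSeq, on GRCm38, gave mature sequences for 42 of these genes. The 11 given here are those of the highest intervals and of well-known families, with the seed (bases 2 to 8) in capitals. miR-132 and miR-212 share a seed, as do miR-193a and miR-193b.
miR-148a-3p: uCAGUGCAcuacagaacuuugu
miR-210-3p: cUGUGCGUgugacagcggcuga
miR-132-3p: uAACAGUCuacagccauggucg
miR-212-3p: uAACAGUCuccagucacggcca
miR-193a-3p: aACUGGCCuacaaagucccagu
miR-193b-3p: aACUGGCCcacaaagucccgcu
miR-9-5p: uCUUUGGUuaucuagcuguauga
miR-137-3p: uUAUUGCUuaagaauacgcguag
let-7i-5p: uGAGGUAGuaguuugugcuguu
miR-191-5p: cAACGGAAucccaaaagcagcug
miR-425-5p: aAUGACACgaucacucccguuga

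After *Mir148a*, the highest miRNA interval by the lower replicate was that of *Mir210*, a gene induced by hypoxia, at chr7:141221717-141222071 with fold enrichments of 21.2 and 10.5. *Mir132* and *Mir212*, a pair that responds to CREB in neurons, shared an interval at chr11:75172976-75173868 with 27.8 and 6.57. All 3 of these loci were overlapped by mCherry-control peaks in both replicates. Intervals also lay at miRNA genes known from neurons. *Mir9-3* had 8.30 and 5.82, and *Mir124a-1* had 7.58 and 5.27. *Mir137* had 10.7 and 7.75. *Mirlet7i*, of the let-7 family of developmental timing, had intervals with 10.9 and 5.02 and with 10.3 and 6.85. The *Mir193a* intervals had 11.7 in replicate 1 and 4.50 and 4.62 in replicate 2, and *Mir193b* had 10.3 and 3.96. Of the 54 miRNA genes, 5 had an interval overlapped in both replicates against mCherry.

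Among other small RNA genes, 7 intervals had a spliceosomal snRNA gene as the nearest. The octamer was in 3 of these 7 windows, those of *Gm23296*, *Gm24407* and *Gm25360*, a set chosen after its values were seen. An octamer is also the known distal promoter element of snRNA genes. *Gm23296* had fold enrichments of 10.7 and 8.20, *Gm24407* had 22.8 and 5.36, and *Gm25360* had 9.76 and 4.75. *Rn7s2*, a gene of the signal recognition particle RNA, had 12.5 and 5.94. *Scarna2*, which encodes a guide RNA of Cajal bodies, had 11.9 and 5.27. On chromosome 17, 2 intervals lay at the ribosomal RNA-like locus of *CT010467.1* and *Gm26917*, with low values of 6.90 and 2.45 and of 6.45 and 2.32. The latter, 3519 bp, is the widest interval. Read assignment there is uncertain, because the sequence is repeated in the genome.

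The embryo libraries held 1690192 to 14015980 counts on genes, with medians of 8644043 in wild-type, 8895879 in het and 4808323 in null embryos. Reads not wholly inside annotated exons were taken as a share of these reads, reads on genes and reads ambiguous between genes. Under the strict counting of the study they include reads that only partly overlap an exon. Their share was higher in null embryos, at 32.3% to 43.9% (median 39.5%), than in het embryos, at 21.2% to 27.9% (25.9%). In wild-type embryos it was at 20.99% to 33.4% (24.3%), which overlapped the null range. *Dis3* was at 18.0 to 147 CPM (counts scaled to library size, after TMM) in wild-type, 30.4 to 59.2 in het and 0 to 21.5 in null embryos. At 18.0, the library with the label E2.5 wild-type replicate 6 fell in the null range, and null against wild-type was also fitted without it. *Pou6f1* was at 3.34 to 55.2, 7.99 to 34.9 and 17.7 to 78.4 CPM. The 8 embryo markers summed to at least 5381 CPM in every library. The 8 cumulus and granulosa markers summed to at most 0.668 CPM in wild-type, 2.71 in het and 18.9 in null embryos, and 4 of the 8 were at 0 in all null libraries. The 6 blood markers summed to at most 16.01 CPM in any library. The part of these cells, of library size or of the reads not wholly inside exons in the higher levels of non-coding genes in null embryos was not tested. Fewer cells per embryo and less RNA per cell cannot be told apart in such samples.

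Of the 568 genes, 554 were in the count tables, 364 had a count in any embryo and 127 (22.4%) passed the filter on low counts. RNA was captured on oligo-dT beads and counted without regard to strand, so small RNAs and genes that share exons with another gene are measured with uncertainty. Of the 54 miRNA genes, 8 had a count and 0 passed the filter. Of the 127 genes, 98 were long non-coding, 14 pseudogenes, 11 TEC and 4 other small RNA genes, and 62 shared exon bases with another gene. The highest levels were those of *CT010467.1*, at 4937 to 23672 CPM, which lies in the ribosomal RNA-like repeat named above. *Malat1* came next, followed by *2310040G24Rik*, *Rps4l* and *Snhg5*. *2310040G24Rik* spread widely between embryos of 1 genotype, from 0.735 to 1775 CPM in wild-type (median 77.7), 1.17 to 1243 in het (156) and 145 to 1835 in null (694). *Rps4l*, a pseudogene related to a ribosomal protein gene, was steady at 189 to 342 CPM in wild-type, 131 to 341 in het and 215 to 410 in null embryos.

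In null against het embryos, 38 of the 127 genes were called higher and 0 lower (edgeR quasi-likelihood test on 7 against 7 embryos). A call needed a Benjamini-Hochberg adjusted p over all genes below 0.1 and a change of over 1 on the log2 scale. Of all 13415 genes tested, 3.67% were called higher and 2.06% lower. The fit held all 23 embryos, with the stages merged by genotype and no term for stage. Their mix was unequal, with 4 null and 2 het embryos at E2.5 and 3 and 5 at E2.75. With stage as a covariate 38 were called higher and 1 lower, beside 486 and 284 of all 13415 genes. At an unadjusted p under 0.05, 54 of the 127 differed in either direction, beside 17.3% of all genes. DESeq2 called 65 higher and 2 lower of the 364 with counts, beside 3.7% and 1.63% of all 33616 genes with counts. The background among other non-coding genes was also high, with 271 of 2059 (13.2%) called higher and 0.777% lower, against 1.63% and 2.32% of 11213 protein-coding genes. The median log2 fold change was 1.24 over the 127, 0.68 over the other non-coding genes and 0.02 over all genes. Only 82 of the 127 would have passed the filter on the het and wild-type libraries alone (at least 1.25 CPM in 7 libraries), and 11 of these 82 (13.4%) were called higher, beside 132 of 1392 other non-coding genes (9.48%). The others of the 38 entered the test only with the null embryos, so the filter favored genes that are high in them. The count of 38 is therefore no support for the whole set of 568.

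Scaled by the ERCC spike-ins, which shifts the median of all genes to -1.08 (log2) in null against het, 28 of the 127 genes were called higher and 13 lower, beside 2.15% and 33.4% of all genes under this scaling. In E2.5 embryos alone, with 4 null against 2 het, 0 of 156 genes were called in either direction by edgeR, beside 0% higher and 0.0126% lower of all genes, and 48 had an unadjusted p under 0.05, beside 9.26% of all genes. In E2.75 embryos alone 29 of 144 were called higher and 3 lower, beside 2.51% and 2.31% of all genes. The difference between the stages passed the threshold for 0 of 205 genes tested (edgeR), and likewise for 0 of all 18677 genes. An unadjusted p under 0.05 was reached by 16 of the 205, beside 6.61% of all genes. With no gene called at all, the 0 does not show that these genes changed alike at both stages. For 27 of the 127 genes the lowest null embryo exceeded the highest het embryo, beside 2.2% of all 13415 genes. Only 82 of the 127 passed the filter without the null embryos, and the count was not taken among these 82 or among other non-coding genes. The filter favored genes that are high in null embryos, so the 27 are no support for the set. Of the genes with an interval overlapped by mCherry-control peaks in both replicates, 8 of 31 tested (25.8%) were called higher. With such a peak in replicate 1 only they were 25 of 70 (35.7%), and with none 5 of 26 (19.2%), beside 3.67% of all 13415 genes. Median wild-type levels were 4.72, 1.83 and 3.30 CPM in the same order. Genes that passed the filter only through the null embryos are among them, so these shares do not rank the groups, and their differences were not tested.

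*1700096K18Rik*, a lincRNA that starts inside an interval with fold enrichments of 25.8 and 8.89, was at 1.34 to 21.1 CPM in wild-type (median 3.95), 3.34 to 15.4 in het (6.33) and 58.7 to 248 in null embryos (98.5). All 7 null embryos were above all others, with a log2 fold change of 4.29 ± 0.61 (SE) against het (edgeR adjusted p = 0.000239). Its levels passed the filter without the null embryos. *1810044D09Rik*, with an interval of 13.7 and 5.92 over its TSS, was at 5.01 to 28.9 CPM in wild-type (15.1), 5.83 to 42.0 in het (12.03) and 50.5 to 111 in null embryos (71.4). Its null embryos did not overlap with the rest, and the log2 fold change was 2.25 ± 0.40 (adjusted p = 0.00155). *B930059L03Rik* was at 0 to 12.5 CPM in wild-type (1.89), 0 to 4.86 in het (2.58) and 11.7 to 129 in null embryos (51.8). The log2 fold change was 4.61 ± 0.91 (adjusted p = 0.00391), and the highest wild-type value exceeded the lowest null value.

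*4833445I07Rik* carries *Mir191* and *Mir425*, which it overlaps on the same strand, and its interval lay at the start of the *Mir425* hairpin with 6.63 and 4.24. It was at 0 to 2.66 CPM in wild-type (0.653), 0 to 2.01 in het (0.123) and 43.4 to 161 in null embryos (75.3), with no overlap. The log2 fold change was 7.21 ± 1.06 (edgeR adjusted p = 0.000284). The snRNA gene *Gm25360* was at 0 to 4.33 CPM in wild-type (0.445), 0 to 2.21 in het (0) and 20.4 to 181 in null embryos (40.3), again with no overlap, and the log2 fold change was 6.76 ± 1.202 (adjusted p = 0.00149). *4930578M01Rik* was at 0 to 1.22, 0 to 0.194 and 8.73 to 29.4 CPM in the same order, and rose in null against het embryos (adjusted p = 0.000311). *Gm43416*, a TEC gene that shares exon bases with *Dancr* on the other strand, had 0 counts in all het embryos and 246 in the null ones, at least 141-fold higher against 3 counts over the group. *1810019N24Rik* had 0 counts in het and wild-type embryos and 124 in null ones, at least 71.3-fold and 93.4-fold higher by the same limit. All 7 null embryos had counts above those of every het embryo for each of these 5 genes, and none of the 5 passed the filter without the null embryos.

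Of the well-known genes on the list used here, 4 rose in null against het embryos. *Neat1*, the scaffold RNA of paraspeckles, was at 3.29 to 42.8 CPM in wild-type (median 12.2), 9.56 to 103 in het (39.5) and 117 to 316 in null embryos (185), and each null embryo was above all others. Its log2 fold change was 2.10 ± 0.50 against het (edgeR adjusted p = 0.0146) and 3.54 ± 0.48 against wild-type (adjusted p = 5.09e-05). *Snhg20* was at 7.96 to 31.2 CPM in wild-type (16.8), 6.22 to 53.3 in het (22.9) and 57.3 to 100 in null embryos (74.4), with a log2 fold change of 1.54 ± 0.36 (adjusted p = 0.0132). *Snhg15*, whose interval was among the 10 highest, was at 88.5 to 238 CPM in wild-type (147), 59.1 to 173 in het (105) and 102 to 346 in null embryos (247). The genotypes overlapped, and the log2 fold change was 1.19 ± 0.27 (adjusted p = 0.0107). With the ERCC scaling, *Neat1* was at 1.01 (adjusted p = 0.216), *Snhg20* at 0.38 (0.538) and *Snhg15* at 0.07 (0.8286) on the log2 scale, so these 3 calls were lost. *Scarna2* was at 0 to 1.89 CPM in wild-type (0.206), 0.369 to 1.51 in het (0.842) and 5.51 to 15.0 in null embryos (9.37), with a log2 fold change of 3.46 ± 0.83 (adjusted p = 0.0151). Its null embryos lay apart from the others, and it passed the filter only through them.

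Other well-known genes did not pass the test in null against het. *Malat1*, with an interval of 25.9 and 6.45, was at 222 to 849 CPM in wild-type (486), 387 to 879 in het (734) and 430 to 1257 in null embryos (517), with a log2 fold change of -0.14 ± 0.28 (adjusted p = 0.852). *Dancr*, with one of the 20 highest intervals (20.6 and 10.5), was at 14.6 to 85.4, 6.56 to 27.2 and 13.8 to 66.9 CPM (log2 fold change 1.17 ± 0.43, adjusted p = 0.133). *Snhg6* had a log2 fold change of 0.08 ± 0.36, *Snhg17* of 0.27 ± 0.34 and *Snhg8* of -1.12 ± 0.69. *Firre*, *Ftx* and *Tsix*, lncRNAs of the X chromosome, had 0.37 ± 0.75, -0.98 ± 1.39 and 2.18 ± 1.21, each with overlapping genotypes. *Pvt1*, the neighbor of *Myc*, had 0.97 ± 0.49 and *Epb41l4aos* 0.04 ± 0.48. Of the other genes with the highest intervals, *Tmem250-ps* had -0.74 ± 0.34 (adjusted p = 0.264), *1700001L05Rik* -0.44 ± 1.18 and *4930412M03Rik* -0.54 ± 1.51, while *Mir148a* and *Gm20732* had 0 counts in any embryo and *Gm47061*, *Gm28050*, *Gm8493* and *5730405O15Rik* did not pass the filter. The direction of *Firre*, *Snhg6*, *Snhg17*, *Epb41l4aos*, *Pvt1*, *Rps4l* and *CT010467.1* was negative under the ERCC scaling. *Mir22hg* had a log2 fold change of -1.08 ± 1.24. *Peg13*, *Trp53cor1*, *Six3os1*, *Mir124a-1hg* and *Mir9-3hg* did not pass the filter, with 8 to 91 counts over all embryos, and *Rn7s2* had 0 counts.

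**Figure D5:**
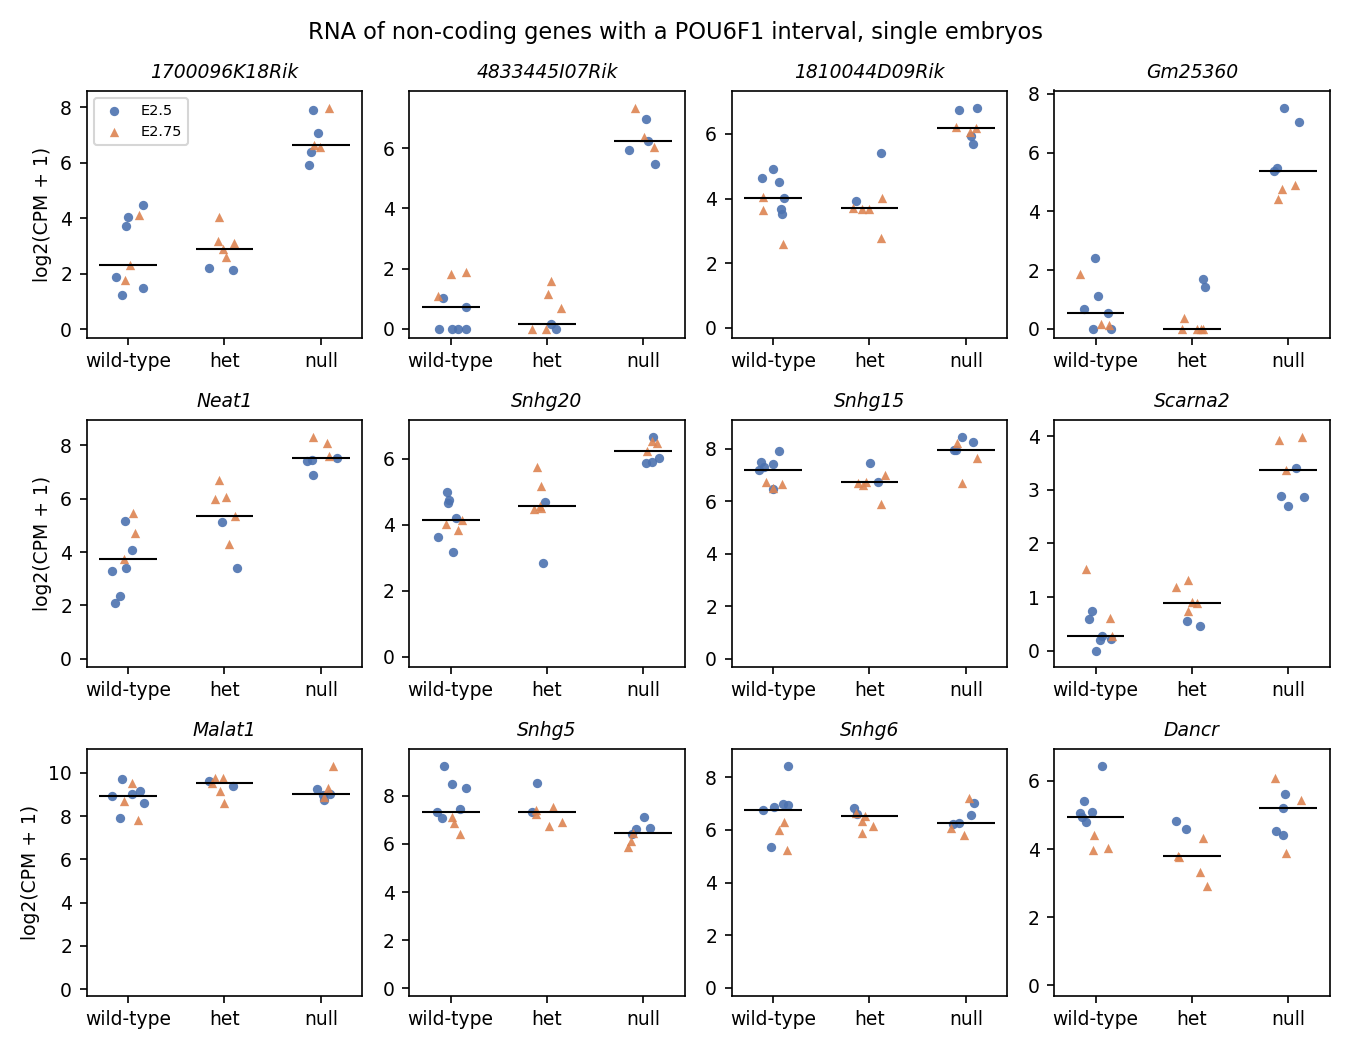
RNA level as log2(CPM + 1) (y axis) of 12 non-coding genes with a POU6F1 interval in each of 23 single embryos, by *Dis3* genotype (x axis) and stage (symbol and color); black lines are medians. The null embryos lie above all others for *1700096K18Rik*, *4833445I07Rik*, *1810044D09Rik*, *Gm25360*, *Neat1*, *Snhg20* and *Scarna2*, while the genotypes overlap for *Snhg15*, *Malat1*, *Snhg5*, *Snhg6* and *Dancr*.

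In null against wild-type embryos, which share the null embryos with the comparison above, 38 of the 127 genes were higher and 2 lower (edgeR), beside 3.66% and 1.59% of all 13415 genes. Among other non-coding genes 12.9% were called higher and 0.826% lower. The filter was passed without the null embryos by 82 of the 127, of which 10 (12.2%) were called higher and 2 (2.44%) lower. Among other non-coding genes that did so, 124 of 1392 (8.91%) were called higher and 1.22% lower. The others called higher entered the test only with the null embryos. Many genes were called higher in both comparisons. Because both use the same null embryos and the same filter, this overlap is no second support. Without E2.5 wild-type replicate 6 the counts were 33 and 1 of 126, beside 3.42% and 1.48% of all genes. Those lower were *Snhg5*, the snoRNA host of *Snord50a* and *Snord50b*, and the pseudogene *Gm10033*, named after their values were seen. *Snhg5* was at 82.8 to 594 CPM in wild-type (median 160), 105 to 365 in het (160) and 56.9 to 137 in null embryos (85.3), with a log2 fold change of -1.35 ± 0.35 against wild-type (adjusted p = 0.0239) and -0.99 ± 0.36 against het (adjusted p = 0.127). *Gm10033* was at 33.6 to 108, 24.4 to 101.3 and 13.2 to 64.6 CPM, with a log2 fold change of -1.08 ± 0.36 against wild-type (adjusted p = 0.0967). The genotypes overlapped for both. In het against wild-type, 0 of the 127 genes were called in either direction by edgeR, beside 0% of all genes. An unadjusted p under 0.05 was reached by 15 of the 127, beside 6.96% of all genes, and DESeq2 called 2 of 364 higher and 0 lower, beside 0.11% and 0.0863% of all genes.

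In wild-type embryos at E2.75 against E2.5, 6 of 205 genes were higher and 3 lower (edgeR fit of the 6 groups), beside 3.74% and 3.64% of all 18677 genes, and 31 of the 205 had an unadjusted p under 0.05, beside 20.1% of all genes. Those lower, named after their values were seen, were *Snhg5*, *Epb41l4aos* and *Abhd11os*. *Abhd11os* was at 30.9 to 55.1 CPM at E2.5 (median 38.3) and at 5.79, 12.97 and 17.04 CPM at E2.75, with no overlap between the stages (log2 fold change -1.77 ± 0.46, adjusted p = 0.0237). *Snhg5* was at 134 to 594 CPM at E2.5 (244) and at 82.8, 116 and 137 at E2.75, where the highest value exceeded the lowest of E2.5 (-1.36 ± 0.40, adjusted p = 0.0453). *Epb41l4aos* was at 21.4 to 127 (40.6) and at 9.32, 9.93 and 24.2 CPM, overlapping likewise (-1.85 ± 0.61, adjusted p = 0.0775). The 6 called higher, such as *CT010433.1* and *AC126937.1*, had 0 counts in all E2.5 wild-type embryos and 9 to 44 counts in all at E2.75. Those counts came from only 1 or 2 of the 3 embryos at E2.75. For *AC126937.1* all 10 were in 1 embryo. Fitted on the 9 wild-type embryos alone, 0 of 97 were called higher and 1 lower by edgeR, beside 3.03% and 3.73% of all genes, and 9 had an unadjusted p under 0.05, beside 18.7% of all genes.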

How the data were processed

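ChIP-seq peak lists of 2 replicates and RNA-seq gene counts of 23 single embryos were used. Per the labels and the methods of the study, ChIP reads were aligned with Bowtie2 2.4.4 and peaks called by the authors per replicate with MACS2 2.2.7.1 against IgG or mCherry. In the deposited lists, fold enrichment at the summit is a linear ratio, p and q are given as −log10 values, and the integer column is a score. Embryo reads were trimmed with cutadapt 3.4, aligned with STAR 2.7.8a and counted by the authors with HTSeq 0.11.4 without strand, and the deposited values are raw counts. The methods speak of 3 biological ChIP replicates, while the labels name 2. Read depth behind the peaks is not given in the sources used here.

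Consensus intervals were intersected with bedtools 2.31.1 and assigned to GENCODE vM21 starts on GRCm38. The intervals and gene lists were chosen with earlier results of these data known. Counts were tested with edgeR 4.0.16 (TMM, low-count filter, quasi-likelihood test, R 4.3.3), with DESeq2 1.42.0 as an alternative, and p-values were adjusted over all genes. The fit was tested on simulated data. Embryos were the replicates, and the comparisons of genotypes merged the stages without a term for stage. Rows that name no gene, and the ERCC rows, stayed out of library sizes. The reads not wholly inside annotated exons were 20.99% to 43.9% of these reads, those on genes and ambiguous ones. Named genes were those on a list of well-known non-coding genes, the 8 with the smallest adjusted p among those called in null against het, those nearest to the 10 highest intervals, and the 5 with the highest mean CPM. The alternatives tried were other normalizations, filters, samples, covariates, peak thresholds, overlaps, distances and annotations, and each replicate left out.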

Additional observations from a re-analysis of the deposited data

Results flagged for a closer look

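Of 86 groups of 4 to 10 embryos tested by Dixon's ratio, 12 held an embryo that stood apart from the rest. The nominal rate of about 1 in 20 groups assumes normally distributed values, which CPM with many zeros are not. The 12 are therefore not read as an excess. In E2.5 wild-type embryos, replicate 1 was highest for *Snhg8* at 44.1 CPM (next 18.4), *Dancr* at 85.4 (next 41.1) and *Epb41l4aos* at 127 (next 52.5). *Snhg6* was at 342 CPM in E2.5 wild-type replicate 5 (next 126). In E2.5 wild-type replicate 3, *Gm25360* was at 4.33 CPM (next 1.16) and *Gm43416* at 0.413 (next 0.097). *Snhg20* was at 100 CPM in E2.5 null replicate 4 (next 64.4). In E2.75 het replicate 2, *1700096K18Rik* was at 15.4 CPM (next 7.98), *Gm25360* at 0.301 (next 0) and *Rps4l* at 341 (next 298). *Pvt1* was at 39.2 CPM in E2.75 het replicate 3 (next 19.1), and *4930578M01Rik* at 0.194 in E2.75 het replicate 1 (next 0). Some of these rest on few reads. The value of *4930578M01Rik* is 3 counts, that of *Gm43416* is 2 counts and that of *Gm25360* in E2.75 het replicate 2 is 1 count. The causes were not tested.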

How the results depend on the processing

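The choice of intervals set their number: 223 remained at a −log10 q of at least 5 in both lists (median fold enrichment in replicate 1 of 14.4), 243 with an overlap of at least 50%, and the number was 761 to 3138 when 1 ChIP replicate was left out. For null against het, genes called higher were 65 of 364 with DESeq2, beside 3.7% of all genes. They were 58 of 364 without the filter, beside 3.77%, and 20 of 127 with the replicate block, beside 1.61%. In E2.5 embryos alone they were 0 of 156, beside 0%, and without 1 embryo 28 to 37, beside 2.51% to 4.04%. Genes called lower were 2 of 364 with DESeq2, beside 1.63% of all genes, and 13 of 127 with ERCC scaling, beside 33.4%. They were 1 each without the filter, with only the 2 genotypes and with stage as a covariate. Of all genes, these settings called 542 of 33616, 289 of 11483 and 284 of 13415 lower, in that order. In E2.75 embryos alone 3 of 144 were lower, beside 2.31%, and without 1 embryo 0 to 1, beside 180 to 368 genes in all. For null against wild-type, genes called higher were 65 of 364 with DESeq2, beside 3.53% of all genes. Without the filter they were 93 of 364, beside 7.95%, and without 1 embryo 30 to 39, beside 2.88% to 4.03%. Genes called lower were 5 of 364 with DESeq2 and 4 of 127 with ERCC scaling, beside 478 of 33616 and 469 of 13415 genes. They were 1 with DESeq2's size factors, 1 with only the 2 genotypes and 0 with the block. Of all genes, 191 of 13415, 125 of 11857 and 174 of 13415 were called lower, in that order. Without 1 embryo 1 to 4 were lower, beside 172 to 286 genes in all. For het against wild-type, DESeq2 called 2 of 364 higher, beside 0.11% of all genes, and 0 were called without any 1 embryo. For stage, genes called higher were 19 of 205 with ERCC scaling, beside 17.2% of all genes. They were 14 of 364 without the filter, beside 4.59%, and 0 of 97 in the 9 wild-type embryos alone, beside 3.03%. Without 1 embryo they were 1 to 6, beside 1.85% to 4.14%. Genes called lower were 9 of 364 with DESeq2, beside 999 of 33616 genes, and 0 of 205 with ERCC scaling, beside 59 of 18677. They were 5 of 364 without the filter, beside 560 of 33616, and 1 of 97 in the 9 embryos, beside 3.73%. Without 1 embryo 1 to 5 were lower, beside 403 to 763 genes in all.

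Only named genes, and not every called gene, were followed for sign through these settings. Their log2 fold changes in null against het that turned sign were all of genes outside the calls. With ERCC scaling they were -0.89 for *Firre*, -1.06 for *Snhg6*, -0.88 for *Snhg17*, -1.14 for *Epb41l4aos*, -0.025 for *Pvt1*, -0.80 for *CT010467.1* and -0.93 for *Rps4l*. Without the filter they were -0.049 for *Snhg6*, -0.079 for *Epb41l4aos* and -0.039 for *CT010467.1*. With stage as a covariate they were 0.16 for *Ftx*, -0.057 for *Snhg6* and -0.19 for *Epb41l4aos*. With the replicate block they were 0.13 for *Malat1*, 2.19 for *Ftx*, -0.12 for *Snhg6*, -0.37 for *Epb41l4aos* and -0.055 for *CT010467.1*. In E2.5 embryos alone they were 7.90 for *Ftx*, -0.24 for *Snhg6*, -0.23 for *Epb41l4aos* and -0.47 for *CT010467.1*, and in E2.75 embryos alone 0.18 for *Malat1*, -0.41 for *Firre* and 0.48 for *4930412M03Rik*. Without 1 embryo the values ran from -0.025 to 0.58 for *Firre*, -0.14 to 0.17 for *Snhg6*, -0.25 to 0.18 for *Epb41l4aos*, -1.39 to 0.061 for *4930412M03Rik* and -0.15 to 0.26 for *CT010467.1*. The causes were not tested.

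The replicate numbers did not pair the embryos, since 0 of 17 same-numbered pairs correlated above 0.1 (r from -0.115 to 0.0826). The block could not be fitted for the stage comparison, where it coincides with stage. The 2 ChIP replicates allow no test of peak height, and low-count genes limit the embryo comparisons, with 441 of 568 genes not tested.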
